A study of Mus musculus with 6 samples.

Results

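The genes described here encode the machinery that brings nuclear-encoded proteins into mitochondria and folds them there. They were chosen by name: every row whose platform symbol begins with Timm or Tomm and a digit, together with Grpel1, Grpel2, Hspa9, Hspd1, Hspe1, Trap1, Samm50, Chchd4, Pmpca, Pmpcb, Lonp1 and Clpp, with pseudogenes left out. The rule found 36 of the 23185 genes tested, 35 of them protein-coding and 1 a long noncoding RNA, Tomm6os, which lies opposite Tomm6. Timm23, Timm8a1 and Pam16, which the rule also covers, had no row under those names and were not analysed here.

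Expression was measured in hearts of FVB mice, with 3 Affymetrix arrays from irisin knockout animals and 3 from wild type littermate controls. The knockout line was made by injecting zygotes with Cas9 mRNA and 5 guide RNAs. Neither the number of founders, the part of the gene removed nor the animals' sex was stated in the labels. Animals of both genotypes ate standard chow, with 10% fat, for 24 weeks. The labels call the material cardiomyocytes in some fields and myocardium in another, and leave unsaid whether each array stands for a different animal, so p-values may measure technical spread alone. Values are the deposited log2 summaries, 1 per gene and array, and differences are knockout minus wild type in those log2 units.

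Mitochondria make only a handful of their own proteins and import the rest from the cytosol. Precursors pass the outer membrane through the TOM complex. From there, proteins with a cleavable presequence go through the TIM23 complex of the inner membrane, pulled into the matrix by a motor built on mitochondrial HSP70. Carrier proteins are escorted by small TIM chaperones to the TIM22 complex instead. In the matrix the presequence is cut off by the processing peptidase, chaperones fold the chain, and proteases remove what fails. Heart muscle cells are packed with mitochondria, so this route carries much of their protein traffic.

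The targeted gene and the cell type markers give the setting. Fndc5, the gene of the irisin precursor, stood at 7.68, 5.49 and 5.45 in the knockout arrays, against 8.42, 8.40 and 7.83 in wild type arrays (difference -2.01, SE 0.54, limma adjusted p = 0.0359). Knockout replicate 1 was thus closer to wild type than the other knockout arrays. Its exact two-sided permutation p was 0.1, the smallest that 3 against 3 arrays allow, and its call was lost when any array except knockout replicate 1 was left out (adjusted p up to 0.133). The 8 cardiomyocyte markers examined had an array mean of 11.2 to 11.3 in the knockout and 10.9 to 11.3 in wild type, and 1 of them passed the test as higher. Smooth muscle markers fell for 5 of 5 genes, with array means of 4.57 to 5.11 in the knockout against 6.39 to 8.62 in wild type. Fibroblast markers fell for 4 of 7 genes, with array means of 6.07 to 6.35 in the knockout against 6.92 to 7.73 in wild type. Of 6 endothelial markers 1 fell, with 3 lower and 0 higher at an unadjusted limma p under 0.05 and a median difference of -0.36. Of 6 macrophage markers 1 fell, with 2 lower and 1 higher at that unadjusted level and a median difference of -0.08. For both cell types every knockout array mean lay below every wild type array mean. The 2 erythroid markers with a row averaged 2.59 to 3.15 in the knockout arrays, against 3.01, 5.07 and 3.15 in wild type replicates 1, 2 and 3, and 0 of them passed the test, with 1 lower at an unadjusted limma p under 0.05. Over all genes 10.4% passed the test as higher and 6.18% as lower, and among the bright genes described below 30% and 11%. The shares of markers that fell were 100% for smooth muscle and 57.1% for fibroblasts, well above these. They were 16.7% each for endothelial cells and macrophages, nearer to the bright genes. The share of cardiomyocyte markers that rose was 12.5%. In such bulk samples fewer cells of a type and less RNA per cell cannot be told apart. The part of these marker changes in the results below was not tested, and no batch is named in the labels, so batch and genotype cannot be told apart.

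Import genes rose more often than they fell in the knockout. Of the 36 members, 10 passed the test as higher and 3 as lower (limma with Benjamini-Hochberg adjustment over all genes, threshold 0.05), or 27.8% and 8.33%. Over all genes the shares were 10.4% higher and 6.18% lower. Bright genes tended to be higher in the knockout in this table. Among the 20% of genes with the highest mean level, 30% were higher and 11% lower, and the 20 members in that part included 8 higher (40%) and 0 lower, also 0 lower at an unadjusted limma p under 0.05. The median difference was 0.30 over the members, 0.20 over that bright part of all genes and -0.05 over all genes. The 10 genes that rose were Tomm5, Tomm22, Tomm6, Tomm40, Timm21, Timm17a, Timm50, Timm8b, Pmpca and Trap1, and the 3 that fell were Timm13, Tomm7 and Timm8a2.

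On all 3 knockout arrays 18 members lay above every wild type array and 4 lay below, against 17.2% and 17% of all genes. The remaining 14 overlapped. Bright genes lay above more often as a class. Among the 4637 genes in the brightest 20%, 1991 lay above and 840 below, and of the 20 members there 14 lay above and 0 below. Mean level over the 36 members was 5.49, 5.48 and 5.46 in knockout replicates 1, 2 and 3, against 5.20, 5.30 and 4.98 in wild type replicates 1, 2 and 3. The knockout arrays were close together and the wild type arrays further apart. The SD was larger in wild type for 29 of 36 members, with a median of 0.10 in the knockout and 0.20 in wild type. Over all genes the SD was likewise larger in wild type for 14579 of 23185, with medians of 0.14 in the knockout and 0.18 in wild type. Wild type replicate 3 gave the lowest wild type value for 24 members, and wild type replicate 2 the highest for 23.

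**Figure D1:**
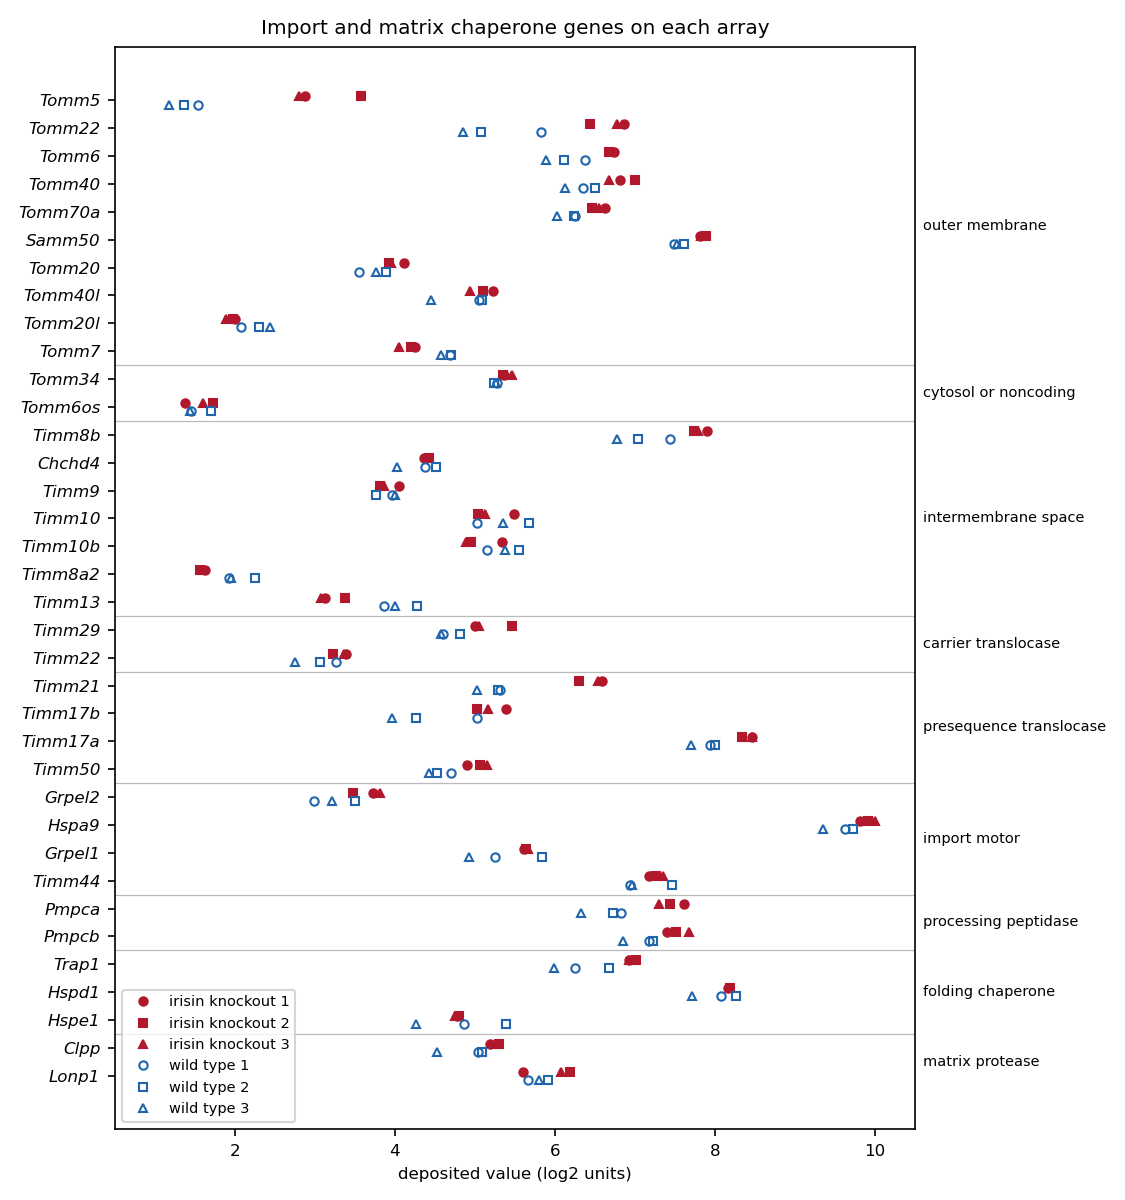
Deposited log2 value (horizontal axis) of each member on each array, with filled red symbols for the 3 irisin knockout arrays and open blue symbols for the 3 wild type arrays, grouped by role from the outer membrane down to the matrix. The sets of symbols stand apart for Tomm5, Tomm22, Timm21 and Pmpca, with knockout above, and for Timm13, with knockout below; levels of different genes are not comparable.

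At the outer membrane, 4 of 10 members rose (40%) and 1, Tomm7, fell (10%). These shares compare with 10.4% higher and 6.18% lower over all genes, and with 30% and 11% among the bright genes described above. Both outer membrane shares were nearer to those of the bright genes. The channel, its central receptor and its small subunits did not move alike. Tomm5, a small subunit of the channel complex, had the largest difference of any member. It read 2.87, 3.58 and 2.80 in the knockout arrays, against 1.53, 1.36 and 1.17 in wild type arrays. The wild type values lie below the array medians of 2.13 to 2.28, and a value that low is not told apart from background here, so the 3.31-fold difference (1.73, SE 0.21, adjusted p = 0.00159) may not give its true size. Tomm22, the receptor at the centre of the complex, read 6.87, 6.44 and 6.78 in the knockout arrays, against 5.83, 5.08 and 4.85 in wild type arrays. Its lowest knockout value was above its highest wild type value, and the mean difference was 2.72-fold (1.45, SE 0.25, adjusted p = 0.00578).

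The bases before the annotated starts of Tomm5 and Tomm22 are shown because these are the 2 outer membrane genes with the largest differences. They are the 250 bases upstream, from RefSeq on GRCm38.p6: chr4:45108114-45108363, minus strand, for Tomm5, and chr15:79670618-79670867, plus strand, for Tomm22. Capitals mark the letters CCGGAAG or their reverse complement, a core that NRF-2 (GABP), a factor known for its sites in genes of mitochondrial proteins, can bind. In Tomm22 a pair of matches on opposite strands overlap, and Tomm5 has none.
Tomm5: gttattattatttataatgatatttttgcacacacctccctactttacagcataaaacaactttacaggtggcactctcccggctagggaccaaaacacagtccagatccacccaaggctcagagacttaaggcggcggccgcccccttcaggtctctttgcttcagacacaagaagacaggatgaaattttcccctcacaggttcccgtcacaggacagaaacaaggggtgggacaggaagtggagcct
Tomm22: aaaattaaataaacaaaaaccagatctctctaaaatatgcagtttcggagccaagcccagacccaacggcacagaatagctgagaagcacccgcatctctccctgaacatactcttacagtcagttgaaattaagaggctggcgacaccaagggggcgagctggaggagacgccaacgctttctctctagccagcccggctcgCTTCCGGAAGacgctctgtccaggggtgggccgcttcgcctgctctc

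The other outer membrane genes moved less. Tomm40, the channel itself, read 6.81, 7.0 and 6.68 in the knockout arrays, against 6.35, 6.5 and 6.13 in wild type arrays, a 1.42-fold rise (0.50, SE 0.14, adjusted p = 0.0454). Tomm6, a small subunit, read 6.74, 6.67 and 6.71 in the knockout arrays, against 6.38, 6.11 and 5.89 in wild type arrays, a 1.5-fold rise (0.58, SE 0.14, adjusted p = 0.0264). Neither gene's groups overlapped. Tomm7, the small subunit that in human cells helps to hold the mitophagy kinase PINK1 at the outer membrane, went the other way. It read 4.25, 4.20 and 4.05 in the knockout arrays, against 4.69, 4.70 and 4.58 in wild type arrays, and was 1.41-fold lower (-0.49, SE 0.12, adjusted p = 0.0216). All of its knockout values lay below all of its wild type values.

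Tomm70a, Tomm20 and the sorting gene Samm50 did not pass. Tomm70a, the receptor for chaperone-bound carrier precursors, averaged 6.55 ± 0.08 in knockout arrays and 6.18 ± 0.12 in wild type arrays (SD, n = 3 each; limma adjusted p = 0.0698). Tomm20, the presequence receptor, read 4.11, 3.92 and 3.96 in the knockout arrays, against 3.55, 3.89 and 3.76 in wild type arrays (0.26, adjusted p = 0.23). Samm50, which inserts barrel-shaped proteins into the outer membrane, read 7.81, 7.89 and 7.82 in the knockout arrays, against 7.49, 7.61 and 7.53 in wild type arrays (0.30, adjusted p = 0.104). In all 3 genes the knockout values stood above the wild type values without reaching the threshold. The Tomm40-like gene Tomm40l read 5.23, 5.10 and 4.94 in the knockout arrays, against 5.05, 5.09 and 4.45 in wild type arrays, which overlapped (0.23, adjusted p = 0.481). The Tomm20-like gene Tomm20l read 2.00, 1.97 and 1.89 in the knockout arrays, against 2.08, 2.30 and 2.43 in wild type arrays (-0.32, adjusted p = 0.141). Its values lay near or below the array medians. Tomm34, a cytosolic co-chaperone in spite of its name, differed by 0.13 (adjusted p = 0.477), and Tomm6os by 0.04 (adjusted p = 0.896). Tomm6os overlaps Tomm6 by 777 bases and Tomm20l overlaps Timm9 by 51, and whether their probes lie in those stretches was not checked.

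**Figure D2:**
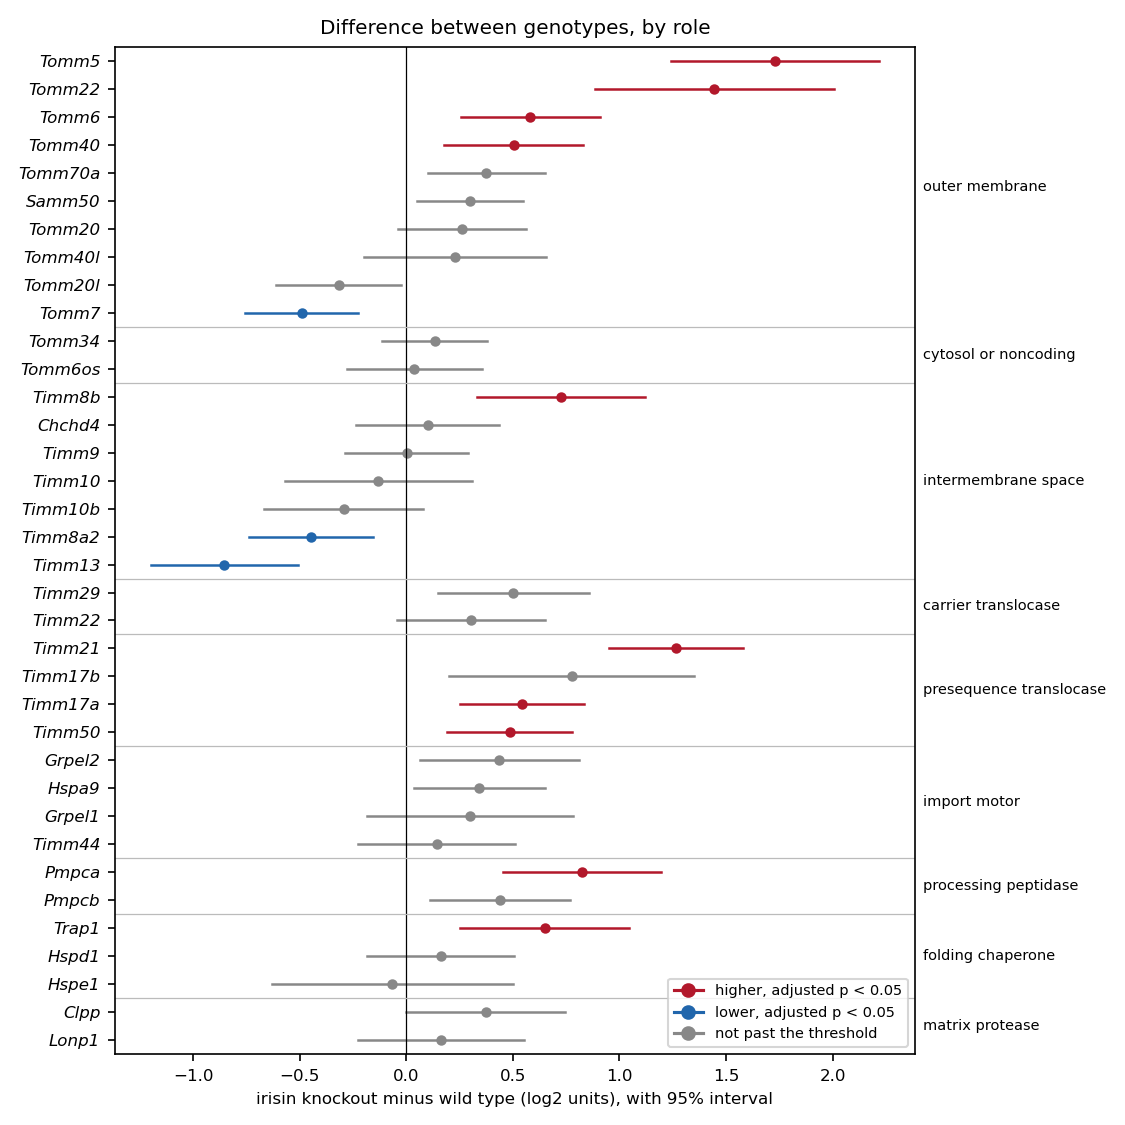
Difference between irisin knockout and wild type (log2 units, horizontal axis) for each member, with its 95% interval from limma; red marks the 10 genes higher and blue the 3 genes lower at adjusted p under 0.05, grey the 23 others. Tomm5, Tomm22 and Timm21 lie farthest to the right and Timm13 farthest to the left.

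In the intermembrane space the small TIM genes split. Of 7 members there, 1 rose (14.3%) and 2 fell (28.6%), against 10.4% and 6.18% of all genes, so the share that rose was near that of all genes. The median difference was -0.13, the only role among those described here with a median below 0. Timm13, a small TIM chaperone that works in a complex with a Timm8 protein, read 3.13, 3.38 and 3.07 in the knockout arrays, against 3.86, 4.28 and 4.0 in wild type arrays. It was 1.81-fold lower, the largest fall among members (-0.85, SE 0.15, adjusted p = 0.00652). Timm8b read 7.90, 7.74 and 7.79 in the knockout arrays, against 7.44, 7.04 and 6.77 in wild type arrays, a 1.65-fold rise (0.72, SE 0.17, adjusted p = 0.0228). For both genes the groups stood apart, in opposite directions. Timm8a2, another gene of the Timm8 family, read 1.63, 1.57 and 1.59 in the knockout arrays, against 1.92, 2.25 and 1.95 in wild type arrays (-0.45, SE 0.13, adjusted p = 0.0458). All but 1 of its values lay below the lowest array median, where a signal is not told apart from background.

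The stretches before these 3 genes are shown because Timm8b and Timm13, from families that work together, passed the test in opposite directions. For Timm13 the 250 bases upstream of the start are given (chr10:80900970-80901219, minus strand), with capitals at a match to GCGCANGCG, the core of the site for NRF-1, or its reverse complement. For Timm8b (chr9:50603871-50603900, plus strand) and Timm8a2 (chr14:122034644-122034673, plus strand) 30 bases just before the start are given, with capitals at CCGGAAG or its reverse complement. The sequences are from RefSeq on GRCm38.p6.
Timm13: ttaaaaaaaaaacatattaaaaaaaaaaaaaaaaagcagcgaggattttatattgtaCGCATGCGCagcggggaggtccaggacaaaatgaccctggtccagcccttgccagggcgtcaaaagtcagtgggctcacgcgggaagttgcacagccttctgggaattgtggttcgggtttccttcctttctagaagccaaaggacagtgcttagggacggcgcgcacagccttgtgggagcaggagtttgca
Timm8b: ggcaacctgaagcgtgaaCCGGAAGgcagg
Timm8a2: gacgcctggtgggtggggcaCTTCCGGtcc

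The partner chaperones of the carrier route did not pass. Timm9, which forms a ring with Timm10, read 4.05, 3.82 and 3.87 in the knockout arrays, against 3.96, 3.76 and 4.01 in wild type arrays, a difference of 0.00 with a 95% interval of -0.29 to 0.29. Timm10 read 5.49, 5.04 and 5.13 in the knockout arrays, against 5.03, 5.68 and 5.36 in wild type arrays (-0.13, adjusted p = 0.712). Timm10b, which belongs to the TIM22 complex, read 5.34, 4.95 and 4.89 in the knockout arrays, against 5.15, 5.55 and 5.37 in wild type arrays (-0.29, adjusted p = 0.282). The groups of all 3 genes overlapped. Chchd4, the oxidoreductase that folds small TIM proteins by giving them disulphide bonds, averaged 4.41 ± 0.03 in knockout arrays and 4.31 ± 0.26 in wild type arrays (SD, n = 3 each; limma adjusted p = 0.718). In the carrier translocase, Timm29, a subunit described in human cells, read 5.00, 5.46 and 5.05 in the knockout arrays, against 4.61, 4.82 and 4.57 in wild type arrays (0.50, adjusted p = 0.0604). The groups did not overlap but the threshold was missed. Timm22, the channel of that complex, differed by 0.30 (95% interval -0.04 to 0.65, adjusted p = 0.232).

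In the presequence translocase of the inner membrane 3 of 4 members rose, against 10.4% of all genes, with a median difference of 0.66. Of the 3 that rose only Timm21 was called after quantile normalization, without any 1 knockout array and without wild type replicate 3. Timm21, a subunit on the outer face of the inner membrane, read 6.59, 6.30 and 6.53 in the knockout arrays, against 5.32, 5.29 and 5.02 in wild type arrays. The gap between the groups was several times the spread within either, and the rise was 2.40-fold (1.26, SE 0.14, adjusted p = 0.000987), the smallest adjusted p of any member. Timm17a, part of the channel, read 8.46, 8.33 and 8.47 in the knockout arrays, against 7.94, 8.01 and 7.70 in wild type arrays, a 1.46-fold rise (0.54, SE 0.13, adjusted p = 0.0212). Timm50, the receptor that takes presequences from the outer membrane, read 4.90, 5.06 and 5.15 in the knockout arrays, against 4.70, 4.53 and 4.43 in wild type arrays, a 1.40-fold rise (0.48, SE 0.13, adjusted p = 0.035). Neither overlapped. Timm17b, the X-linked paralog of Timm17a, had the larger mean difference of the pair, 0.78, but wild type replicate 1 lay marginally above the lowest knockout array. It read 5.39, 5.02 and 5.16 in the knockout arrays, against 5.02, 4.26 and 3.97 in wild type arrays (SE 0.25, adjusted p = 0.0728).

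The import motor did not pass in any of its 4 members, although all 4 differences were positive and 2 had an unadjusted limma p under 0.05. Hspa9, mitochondrial HSP70, averaged 9.91 ± 0.09 in knockout arrays and 9.57 ± 0.20 in wild type arrays (SD, n = 3 each; limma adjusted p = 0.13), and its groups did not overlap. Timm44, which tethers it to the channel, read 7.17, 7.26 and 7.35 in the knockout arrays, against 6.94, 7.46 and 6.97 in wild type arrays, with wild type replicate 2 highest of all (0.14, adjusted p = 0.627). The nucleotide exchange factor Grpel1 had the same pattern, at 5.62, 5.64 and 5.66 in the knockout arrays, against 5.25, 5.84 and 4.93 in wild type arrays (0.30, adjusted p = 0.41). Its paralog Grpel2 read 3.73, 3.47 and 3.81 in the knockout arrays, against 2.99, 3.51 and 3.21 in wild type arrays (0.44, adjusted p = 0.112). Without wild type replicate 2 both exchange factors passed as higher, Grpel1 at an adjusted p of 0.0375 and Grpel2 at 0.0461.

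In the matrix, the processing peptidase rose for 1 of its 2 subunits, against 10.4% of all genes and 30% of the bright genes described above. Pmpca, the subunit that holds the presequence, read 7.61, 7.44 and 7.30 in the knockout arrays, against 6.83, 6.73 and 6.32 in wild type arrays, a 1.77-fold rise (0.82, SE 0.16, adjusted p = 0.0103). Pmpcb, the catalytic subunit, read 7.40, 7.51 and 7.67 in the knockout arrays, against 7.18, 7.23 and 6.86 in wild type arrays (0.44, SE 0.14, adjusted p = 0.0731). Both were higher on every knockout array than on every wild type array, as were 17.2% of all genes and 1991 of the 4637 bright genes. Both subunits are bright, and 2 genes are too few to show an excess over that class.

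The folding chaperones differed from each other. Trap1, the mitochondrial HSP90, read 6.93, 7.02 and 6.92 in the knockout arrays, against 6.25, 6.68 and 5.99 in wild type arrays, a 1.57-fold rise (0.65, SE 0.17, adjusted p = 0.0367). Hspd1, which encodes the barrel chaperone HSP60, read 8.16, 8.19 and 8.19 in the knockout arrays, against 8.07, 8.26 and 7.72 in wild type arrays (0.16, 95% interval -0.18 to 0.51, adjusted p = 0.548). Hspe1, its lid HSP10, read 4.78, 4.80 and 4.75 in the knockout arrays, against 4.87, 5.39 and 4.26 in wild type arrays (-0.07, 95% interval -0.63 to 0.50, adjusted p = 0.898). For both genes of the HSP60 chamber the knockout arrays lay inside the wild type range, and the wild type arrays had the same order, replicate 2 highest and replicate 3 lowest. RefSeq names 5 pseudogenes after Hspd1 and 7 after Hspe1, so whether their probes are free of signal from such copies is uncertain. Hspd1 and Hspe1 lie head to head on chromosome 1, with annotated bodies that overlap by 96 bases.

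Short stretches of 30 bases before Pmpca and Hspe1 are shown to set a gene that rose beside one that did not pass, each with a match to a searched motif. The one from Pmpca (chr2:26389283-26389312, plus strand) has CCGGAAG in capitals, and it overlaps the annotated gene Entr1. The one from the region shared by Hspd1 and Hspe1 (chr1:55088053-55088082, given on the Hspe1 strand) has GAANNTTC in capitals, a core of the heat shock element, and its last base begins a CCGGAAG. Both are from RefSeq on GRCm38.p6.
Pmpca: cggctcggcgggCCGGAAGccagcgccgaa
Hspe1: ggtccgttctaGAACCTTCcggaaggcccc

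The 2 matrix proteases did not pass, and 0 had an unadjusted limma p under 0.05. Clpp, the proteolytic barrel that works with the unfoldase ClpX, averaged 5.26 ± 0.05 in knockout arrays and 4.88 ± 0.31 in wild type arrays (SD, n = 3 each; limma adjusted p = 0.171), without overlap. Lonp1, the protease that clears oxidised matrix proteins, read 5.60, 6.19 and 6.08 in the knockout arrays, against 5.67, 5.91 and 5.80 in wild type arrays (0.16, adjusted p = 0.592). Its knockout replicate 1 was the lowest of all 6.

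A core of the calls did not rest on any single array. Tomm5, Tomm22, Timm21 and Pmpca were higher and Timm13 lower in each of the 6 fits that leave out 1 array, with adjusted p of at most 0.0483. Those 4 were also the only members called higher without knockout replicate 1, without knockout replicate 2, without knockout replicate 3 and without wild type replicate 3. Without wild type replicate 1, 9 members were higher, 8 of them among the 10. Without wild type replicate 2, 9 were higher, 7 of them among the 10. Tomm7 lost its call without any 1 knockout array or wild type replicate 2 (adjusted p up to 0.0857). Timm8a2 lost its call without any 1 array other than wild type replicate 1 (up to 0.141).

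Scaling of the arrays changed the count as well. Quantile normalization, which gives all arrays the same distribution, left 4 members higher, the same Tomm5, Tomm22, Timm21 and Pmpca, and 2 lower, Timm13 and Tomm7. Their differences were then 1.79, 1.27, 1.1 and 0.59, and -0.87 and -0.57. The median difference over members was 0.16 under that scaling. Centring each array on its median moved the median of all genes by 0.10 and gave 15 members higher and 1 lower, Timm13. Over all genes centring gave 3090 higher and 1008 lower. Hspd1 turned to -0.12, Timm44 to -0.10, and Timm9 to -0.04 after quantile normalization, and Hspe1 turned to 0.03 after centring. None of these was past the threshold under any of the 3 scalings.

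**Figure D3:**
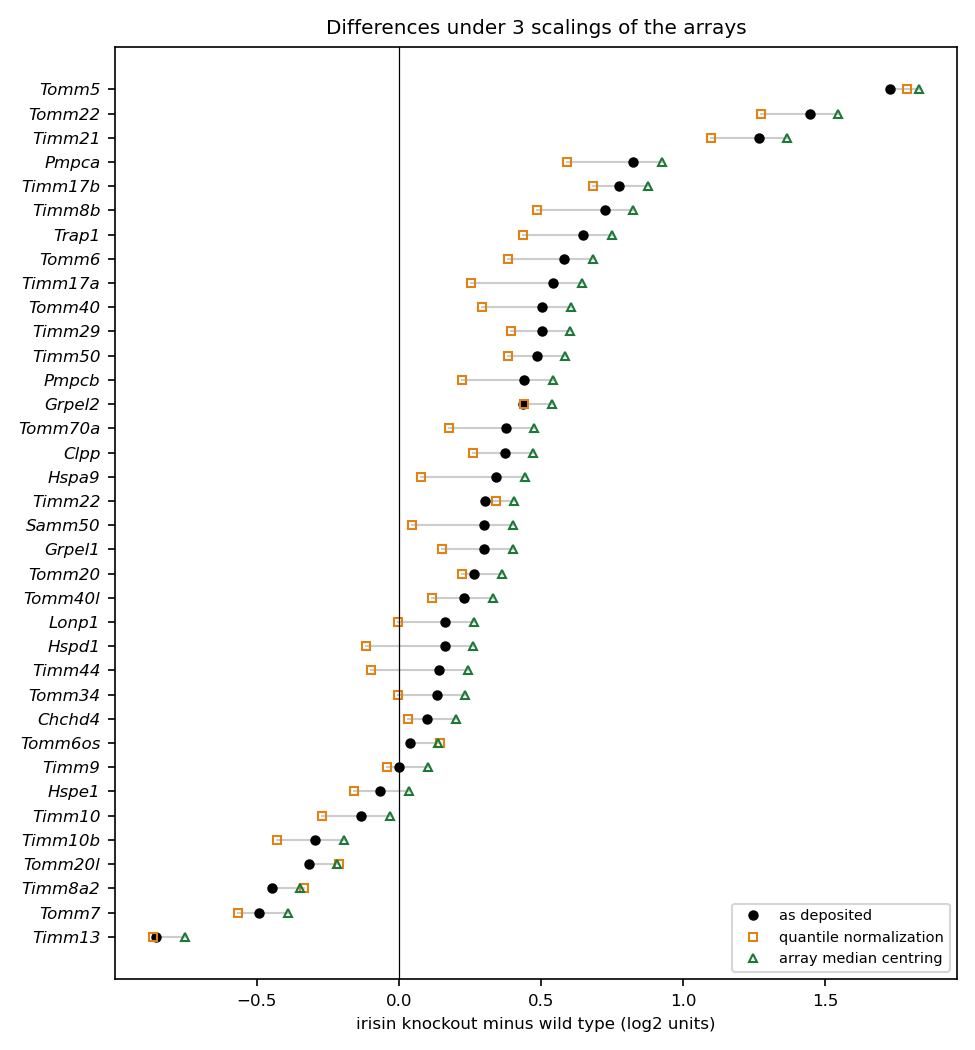
Difference between irisin knockout and wild type (log2 units, horizontal axis) for each member, as deposited (filled circles), after quantile normalization (squares) and after centring each array on its median (triangles), ordered by the deposited difference. Tomm5, Tomm22, Timm21 and Timm13 stay well away from 0 under all 3, whereas Hspd1, Timm44 and Hspe1 cross it.

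Paralogs and direct partners were compared within each array, as the log2 value of one gene minus that of the other. Of 7 pairs tested, 1 had groups that did not overlap. Tomm20 minus Tomm20l stood at 2.11, 1.95 and 2.07 in the knockout arrays, against 1.47, 1.59 and 1.33 in wild type arrays, so the difference between their changes was 0.58. Tomm20l lay near the array medians of 2.13 to 2.28 on all 6 arrays, where a signal is not told apart from background, so the size of this difference is uncertain. The exact two-sided permutation p was 0.1, the smallest possible, and 0.35 after adjustment over the 7 pairs, a level at which no pair could pass. For Timm17a and Timm17b the difference of changes was -0.23 (exact p = 0.4), for Grpel1 and Grpel2 -0.14 (0.6) and for Hspd1 and Hspe1 0.23 (0.4). For Pmpca and Pmpcb it was 0.38, for Tomm40 and Tomm40l 0.28 and for Timm10 and Timm10b 0.16, each with an exact p of 0.2. A called gene beside an uncalled partner is therefore not shown to differ from it in response.

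**Figure D4:**
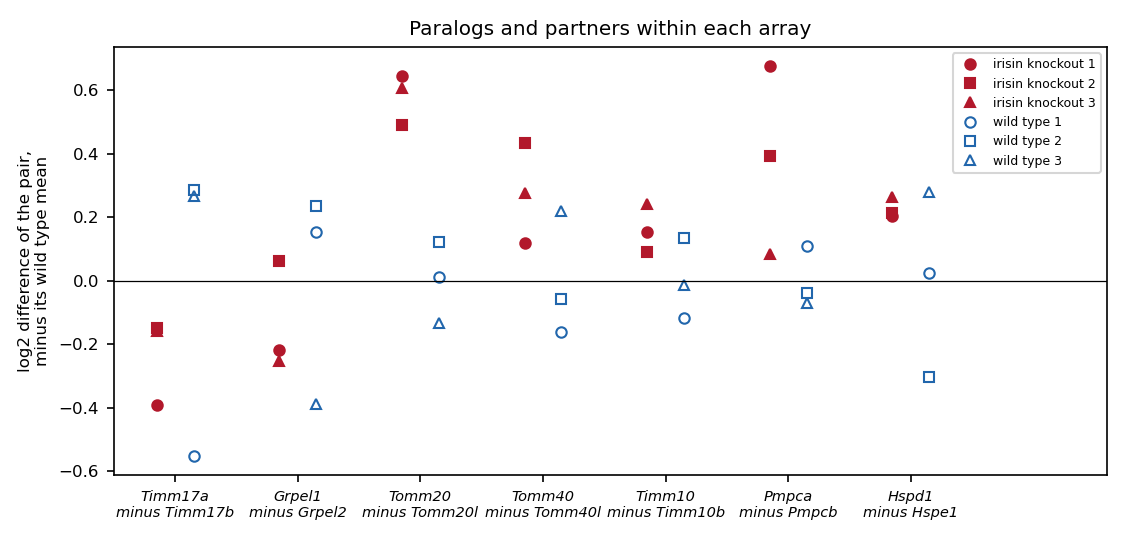
Log2 value of one gene minus that of its paralog or partner on each array, shifted so that each pair's wild type mean is 0 (vertical axis, log2 units); filled red symbols are irisin knockout arrays and open blue symbols wild type arrays. The groups stand apart for Tomm20 minus Tomm20l, whose second gene is not told apart from background, and overlap for the other 6 pairs.

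What the members share before their starts was examined in the 250 bases upstream, for the 31 members with a RefSeq window. CCGGAAG, the NRF-2 (GABP) core, lay in 12 of them on either strand (38.7%), against 10.6% of 15793 protein-coding genes on the array and 6.91% of all 32851 windows. It was found in 3 of 9 members that rose (Tomm22, Pmpca and Timm8b), 1 of 2 that fell (Timm8a2) and 8 of 20 that did not pass, among them Hspd1, Hspe1, Pmpcb, Tomm70a and Grpel1. GCGCANGCG, the NRF-1 core, lay in 4 (Chchd4, Hspd1, Timm13 and Tomm20), or 12.9% against 8.52% of coding genes and 5.16% of windows. GAANNTTC lay in 3 (Hspd1, Hspe1 and Timm9), or 9.68% against 6.95% and 6.69%. The windows of Hspd1 and Hspe1 overlap and hold the same GAANNTTC and the same CCGGAAG matches, so these 3 genes rest on 2 sites and the shared region is counted for both genes among the 12 as well. TNAAGGTCA, a site of oestrogen-related receptors, lay in Timm8b alone, against 1.04% and 1.14%. TGATGNAA, a core of the site for ATF4 with CHOP, lay in 0 members, against 3.25% and 3.45%. Median GC content was 57.8% in member windows and 56.4% in windows of coding genes. A match of letters is not a measured binding site.

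Genes around the import route, listed by function and lying outside the rule, were counted in the same way, and their counts are to be read against 10.4% higher and 6.18% lower over all genes, and 30% and 11% among the 20% of genes with the highest signal. Of 23 import partners, 11 rose (47.8%) and 1 fell (4.35%), with a median difference of 0.46. Mtch2, which in human cells inserts helical proteins into the outer membrane, rose 2.66-fold to 8.33 ± 0.07 in the knockout, against 6.92 ± 0.33 in wild type (SD, n = 3 each; limma adjusted p = 0.00149). The outer membrane pore Vdac2 rose 2.14-fold, Mtx2, a partner of Samm50, 1.93-fold, and the inner membrane insertase Oxa1l 1.89-fold. Dnajc11, a J protein of the outer membrane named here after its value was seen, was the 1 that fell (-0.52, adjusted p = 0.0226). Of 14 further proteases and processing factors, 8 rose (57.1%) and 0 fell, 0 also at an unadjusted limma p under 0.05, with a median of 0.53. Clpx, the unfoldase that feeds Clpp, rose 2.01-fold to 6.74 ± 0.10 in the knockout, against 5.74 ± 0.10 in wild type (SD, n = 3 each; limma adjusted p = 0.00134). Pitrm1, which degrades cut-off presequences, rose 1.71-fold, Stoml2, a scaffold of the inner membrane, 2.10-fold, and the stress-activated protease Oma1 1.78-fold.

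The cytosolic and signalling ends of the route were mixed. Of 10 cytosolic delivery and quality control genes, 3 rose (30%, the share among the bright genes) and 2 fell (20%). Atad1, which pulls misplaced proteins out of the outer membrane, read 8.70, 8.51 and 8.20 in the knockout arrays, against 6.80, 6.36 and 6.44 in wild type arrays, a 3.84-fold rise (1.94, SE 0.17, adjusted p = 0.000464). Ubqln2, a shuttle for misfolded proteins, rose 1.92-fold. The J protein Dnaja2, named after its value was seen, rose 1.31-fold (limma adjusted p = 0.0494), whereas the J proteins Dnaja1 and Dnajb6 were 1.57-fold and 1.80-fold lower. Dnajb6 read 1.94, 2.44 and 2.61 in the knockout arrays, near the array medians of 2.13 to 2.28. The size of its fall is therefore uncertain. After quantile normalization, or with replicate number as a block, only 2 genes of this list were higher, Atad1 and Ubqln2, so Dnaja2 lost its call there. Dnajb6 lost its call without knockout replicate 1 (adjusted p = 0.0602), knockout replicate 2 (0.0591), wild type replicate 2 (0.0532) or wild type replicate 3 (0.0536), and Ubqln2 without knockout replicate 2 (0.0525). Of 9 genes of mitochondrial stress signalling, 3 rose (33.3%) and 1 fell (11.1%). Dele1, which in human cells carries the signal of failed import out to the kinase HRI, read 7.70, 7.56 and 7.40 in the knockout arrays, against 6.25, 6.19 and 5.91 in wild type arrays, a 2.71-fold rise (1.44, SE 0.14, adjusted p = 0.000665). Eif2ak1, which encodes HRI, rose 2.11-fold (1.08, SE 0.14, adjusted p = 0.00175). Atf4, the transcription factor at the end of that route, read 4.31, 4.47 and 4.31 in the knockout arrays, against 5.13, 4.89 and 5.26 in wild type arrays, and was 1.66-fold lower (-0.73, SE 0.13, adjusted p = 0.00757). The stress factors Ddit3 (-0.33, adjusted p = 0.0897) and Atf5 (-0.31, adjusted p = 0.204), both named after their values were seen, did not pass, and Atf2, a relative of Atf4, rose 1.90-fold. Atf2 lost its call without any 1 knockout array or wild type replicate 3 (adjusted p up to 0.0805) and after quantile normalization (0.0556). Atf4 kept its call in each fit without 1 array (adjusted p up to 0.0372), and missed it without both arrays numbered 1 (0.0594).

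**Figure D5:**
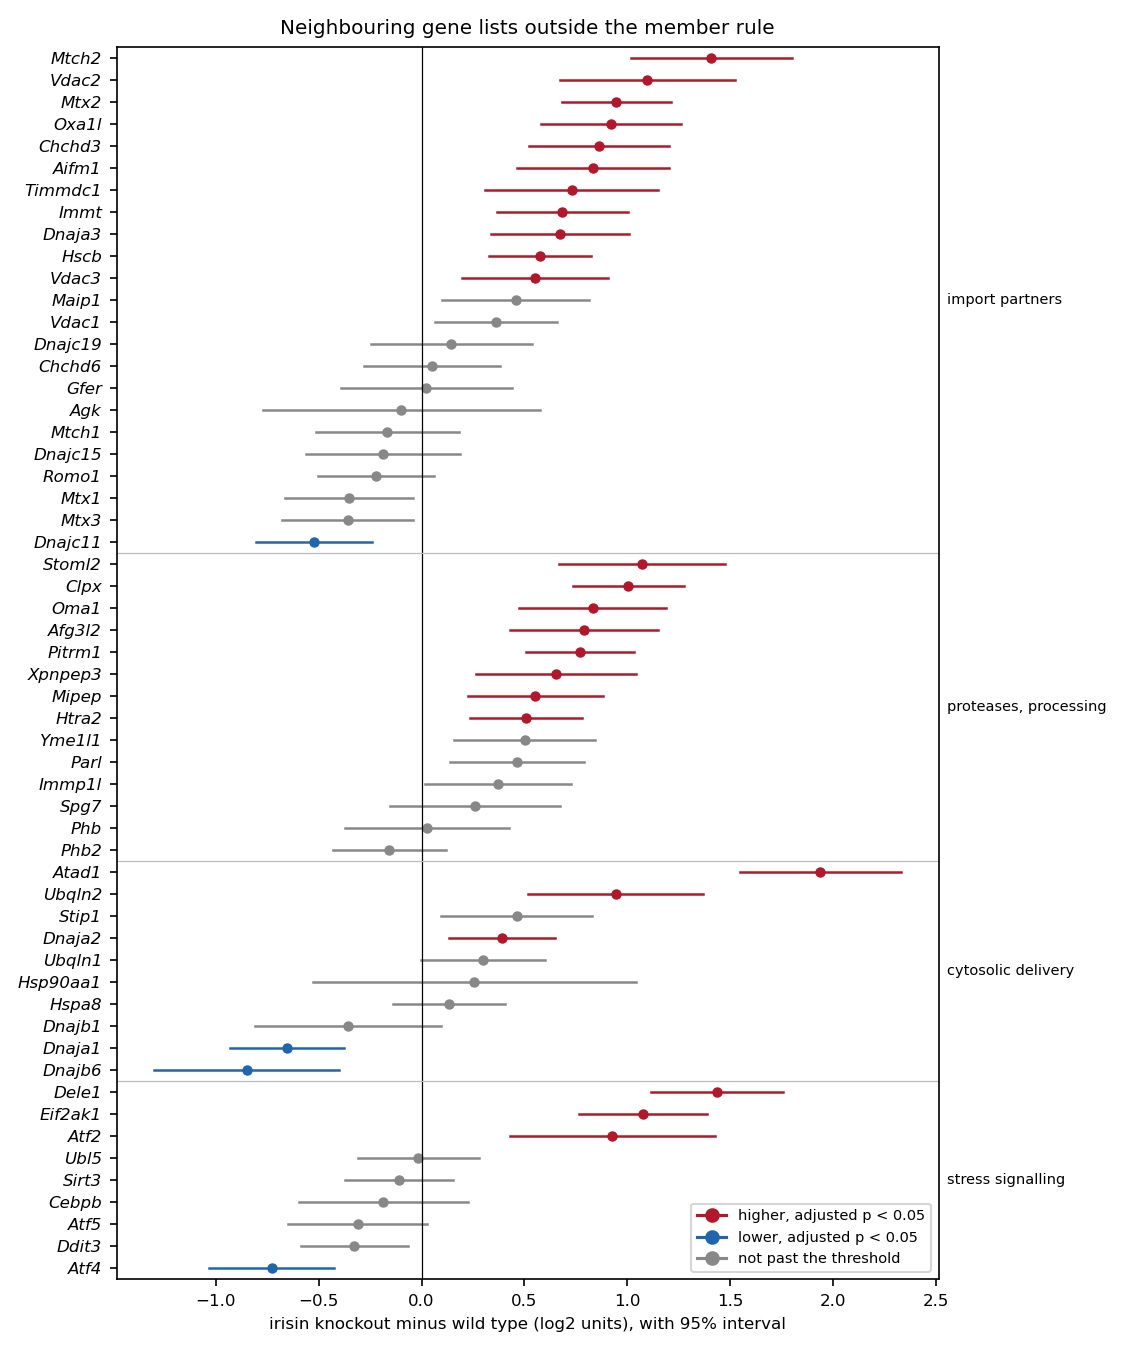
Difference between irisin knockout and wild type (log2 units, horizontal axis) with its 95% interval for genes of 4 lists outside the member rule, coloured by call as before. Most import partners and proteases lie right of 0, Atad1 and Dele1 lie farthest right in the lower lists, and Dnajb6 and Atf4 lie to the left.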

How the data were processed

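The deposited table holds log2 expression values, 1 column per array. Per the submitters' processing notes the authors made them by RMA with affy 1.61.0 in R 3.6.0; the probe set definition, detection calls and build were not stated there, and the log2 scale was inferred from the range of 0.09 to 13.0. RNA was extracted with TRIzol and labelled with biotin, per the labels' protocols. Of 25206 rows, 23185 had 1 gene symbol in the platform annotation, 0 had several and 2021 had none and were left out. All symbols were found in RefSeq's GRCm38.p6 gene table, used for names, gene types and overlaps.

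Each gene was tested with limma 3.58.1 in R 4.3.3 (lmFit, eBayes, genotype as the only term, two-sided), adjusted by Benjamini-Hochberg over all 23185 genes, threshold 0.05, with no filter. The code was tested on simulated data. With 3 arrays a genotype, precision is low. Pairs were tested by exact permutation of arrays. The members, lists and tests were chosen with earlier results of these data known. Every member is accounted for, with values on all arrays for members past the threshold and for paralog pairs. Fndc5 and, in each list outside the rule, up to 4 genes past the threshold by p are named, plus 4 others said to be chosen after their values were seen. The cell type markers are given by counts and array means and are not named. Alternatives were other scalings, filters on dim genes, variance models, array weights, a block for replicate number, left-out arrays and other thresholds. Plots used matplotlib 3.10.9.
Promoter letters were searched on both strands of RefSeq windows.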

Additional observations from a re-analysis of the deposited data

How the results depend on the processing

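Without 1 array, members higher numbered 4 to 9 and lower 1 to 3 (median 0.21 to 0.38), import partners higher 7 to 12 and lower 0 to 1, proteases higher 4 to 10, cytosolic delivery genes higher 1 to 4 and lower 1 to 2, and Fndc5 ran from -2.75 to -1.63. Quantile normalization gave 4 members higher, 7 import partners higher (median 0.28), 5 proteases higher and 2 stress factors lower. Centring gave 1 member and 0 import partners lower, and a stress factor median of -0.0092. Robust variance left Fndc5 at -2.01 (limma adjusted p = 0.0635). Without both arrays numbered 1, there were 1 member lower, 7 import partners higher and 0 lower, 4 proteases higher, 1 delivery gene lower and 0 stress factors lower (median 0.076). At a threshold of 0.01, 3 members were higher and 1 lower, 7 import partners higher and 0 lower, 4 proteases higher, 1 delivery gene higher and 1 lower, and Fndc5 at -2.01 was not called. At 0.1, 2 stress factors were lower. The share of called genes that were higher was 62.8% over all genes, 55.2% after quantile normalization and 75.4% after centring. The causes were not tested.

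Signs turned only for uncalled members: after quantile normalization Hspd1 (-0.12), Timm44 (-0.10), Timm9 (-0.041), Tomm34 (-0.0034) and Lonp1 (-0.0036), after centring Hspe1 (0.035), and without both arrays numbered 1 Timm9 (-0.044). Leaving out 1 array, Tomm6os ran from -0.041 to 0.13, Hspe1 from -0.35 to 0.21, Timm9 from -0.071 to 0.050, Timm10 from -0.30 to 0.030 and Chchd4 from -0.043 to 0.21. No pair difference changed sign. The pair of Timm8a1 and Timm8b was not run.

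With replicate number as a block, 11 members were higher and 2 lower, 9 and 2 of them among those called without it. Deviations of same-numbered arrays correlated at 0.0896, 0.0478 and 0.0700. Each knockout array correlated best with its own number, but wild type replicate 2 correlated better with knockout replicate 3 (0.0548) than with knockout replicate 2. These values are at most a hint from the data, and the arrays share only a number.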
